A study of Mus musculus with 2 samples.

Results

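The Th1-like conventional CD4 T cells of MB49 tumours were 231 of the 511 conventional CD4 barcodes in the data, 135 of 267 female and 96 of 244 male ones. They were chosen on measured counts. Of 7366 barcodes, 6987 were kept, which held at least 500 genes and had no more than 10% of their unique molecular identifiers (UMIs, tags that count captured transcripts) from mitochondrial genes. A kept barcode was a conventional CD4 barcode if it held at least 1 UMI of Cd3e, at least 1 of Cd4 or Cd40lg, none of Foxp3, Cd8a, Cd8b1 or Lyz2, and at most 25000 UMIs in all. It was a member if it also held at least 1 UMI of at least 2 of 6 genes, Klrg1, Il12rb2, Il18rap, Ifng, Nkg7 and Cxcr6. The other 132 female and 148 male conventional CD4 barcodes are the ones members are set against, and are called the others below. Because the rule used counts of these same barcodes, members against others is a description, and no test was made of it.

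MB49 is a mouse bladder cancer cell line. Per the labels, it was transplanted into female and male C57BL/6J mice aged 12 to 14 weeks, and tumours were taken on day 14, digested with collagenase and sorted for viable CD4+ T cells, which gave 1 droplet 5′ library per sex. How many mice each library holds is not stated in the labels, so female over male compares 2 libraries, with no replicate spread and no p-value. The study's title concerns CD4 help through CD40L and CD40.

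The female library held 3658 barcodes and 55880364 UMIs, and the male library 3708 barcodes and 50946624 UMIs. Although the sort was for CD4+ cells, 1725 female and 1495 male barcodes held Cd3e and at least 2 Cd8a or Cd8b1 UMIs with no Cd4, Cd40lg or Foxp3, which the gate left out. The median depth was 5306 UMIs for female members and 6062 UMIs for male members, against 5018.5 and 4720.5 for the others. Of 16 barcode sequences found in both libraries, none was a conventional CD4 barcode. Levels are CPM, a gene's UMIs summed over a class of 1 library and scaled to the same total for every class, and ratios are log2. The 95% intervals in parentheses cover counting error only. They are exact, except that those of a difference between shares are combined from the bounds of both shares.

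Th1 cells are the helper T cell class that interleukin 12 and the transcription factor T-bet (Tbx21) drive and that is known for interferon gamma. The interleukin 12 and interleukin 18 receptors let antigen-presenting cells raise that output without further antigen, and interferon gamma acts on macrophages, tumour cells and the T cells themselves. In mouse tumours, CXCR6 marks T cells that stay in tissue near CXCL16-bearing cells, and KLRG1 and NKG7 are found on effector T cells and natural killer (NK) cells.

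Counts of sex-linked genes went with the library labels: over conventional CD4 barcodes, Xist had 338 UMIs in female and 0 in male barcodes, and the Y-linked Ddx3y had 0 in female and 109 in male barcodes. The cell type label was checked on Tbx21 and on markers of other cells. Cd4 is a gate gene, so its level cannot check the label. It stood at 355 CPM in female members and 366 CPM in male members, against 308 and 316 CPM in the others. Tbx21 (chr11:97098071-97115331, GRCm38) had a UMI in 66 of 135 female and 52 of 96 male members, against 23 of 132 and 25 of 148 others, and in 0 of 29 female and 0 of 24 male Krt8 barcodes without Cd3e (median 52964 and 44362.5 UMIs), which stand for cells that should lack it. Cd8a and Cd8b1 were at 0 by the gate. NK and NKT markers had a UMI in 19 of 135 female and 7 of 96 male members, against 3 of 132 and 3 of 148 others, with a summed level of 61.4 and 45.8 CPM in members. Gamma delta T cell markers had a UMI in 6 and 4 members, against 2 and 0 others, and macrophage and monocyte markers in 5 and 10 members, against 1 and 1 others. Dendritic cell markers, which include MHC class II genes, were seen in 22 and 27 members, against 11 and 25 others, and B cell markers in 20 and 26 members, against 23 and 37 others. Haemoglobin and platelet genes were at 0 in all 4 groups, and 1 male barcode of the others held 224 of its group's neutrophil marker UMIs. The results were also run without barcodes holding Trdc, Zbtb16, Klrb1c or Ncr1, which are gamma delta, NK and NKT markers. The share of members, female minus male, then stayed within the range of 10.2 to 19.5 percentage points given at the end. The part of the remaining markers in the results below was not tested.

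The data went against the label most in 1 subset. Of the 12 male members with a Klrg1 UMI, 10 also held Ikzf2, which encodes the regulatory T cell factor Helios (83.3%, 51.6 to 97.9), against 3 of the 49 female members with Klrg1 (6.12%, 1.28 to 16.9). Ikzf2 was seen in 91.2% of female and 96.1% of male barcodes with Foxp3 in the same T cell gate, in 20.5% and 14.9% of the others, and in 3 of 29 and 1 of 24 Krt8 barcodes. In those 12 male members Ikzf2 stood at 1459 CPM and Ctla4 at 1820.2 CPM. In the 49 female members with Klrg1, Ikzf2 stood at 59.8 CPM and Ctla4 at 176 CPM. Most male Klrg1 members thus held no Foxp3 UMI but carried a marker that most Foxp3 barcodes held, though not Foxp3 barcodes alone. Genes named between the libraries whose call changed without Klrg1 members are given both ways.

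The 6 genes that chose the members were spread unevenly between the libraries. Nkg7, whose protein sits in cytotoxic granules, was the most abundant, at 816 CPM in female members, with a UMI in 111 of 135, and 726 CPM in male members, with a UMI in 74 of 96. Cxcr6 stood at 553 CPM in female members, with a UMI in 109 of 135, and 293 CPM in male members, with a UMI in 62 of 96. These were the genes members most often held, in both libraries.

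Of the cytokine receptor genes, Il12rb2 stood at 314 CPM in female members, with a UMI in 89 of 135, and 129.6 CPM in male members, with a UMI in 35 of 96. Il18rap, the accessory chain of the interleukin 18 receptor, stood at 283 CPM in female members, with a UMI in 90 of 135, and 107 CPM in male members, with a UMI in 42 of 96. Both were at higher levels in the female library. Ifng itself stood at 299 CPM in female members, with a UMI in 56 of 135, and 136 CPM in male members, with a UMI in 29 of 96, and 1 male barcode held 30.3% of the male Ifng UMIs. Klrg1 stood at 199.6 CPM in female members, with a UMI in 49 of 135, and 62.5 CPM in male members, with a UMI in 12 of 96. All 6 genes together were held by 15 female members and 1 male member, and another 15 female members held every one but Ifng. Nkg7 with Cxcr6 alone was the most frequent pair in male members, at 16 barcodes, and it was held by 10 female members.

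The number of rule genes per barcode set the libraries apart more than the threshold of 2 did. Of the genes, 0, 1, 2, 3, 4, 5 and 6 were held by 79, 53, 37, 25, 25, 33 and 15 female barcodes and by 97, 51, 54, 28, 9, 4 and 1 male barcodes. Just inside the threshold of 2 genes were 37 female and 54 male barcodes, and just outside it were 53 and 51. Between 3 and 5 genes the female counts did not decline as the male counts did.

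Members made up 50.6% (44.4 to 56.7) of female and 39.3% (33.2 to 45.8) of male conventional CD4 barcodes, a difference of 11.2 percentage points (2.31 to 19.9). At 4 or more genes the shares were 27.3% and 5.74%, a difference of 21.6 points (15.2 to 27.9). After every barcode was thinned to 3123 UMIs, with 25 female and 26 male barcodes too shallow and left out, members were 44.0% and 29.2%, a difference of 14.8 points (5.70 to 23.6). As background, 0 of the 29 female and 0 of the 24 male Krt8 barcodes held 2 or more rule genes, although 5 and 2 of them held an Il18rap UMI. In T cells outside conventional CD4 the rule genes were common: 2 or more were held by 59.9% and 54.7% of Foxp3 barcodes (median 7694 and 6640 UMIs) and by 88.8% and 82.3% of Cd8 barcodes (9073 and 8145 UMIs).

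**Figure D1:**
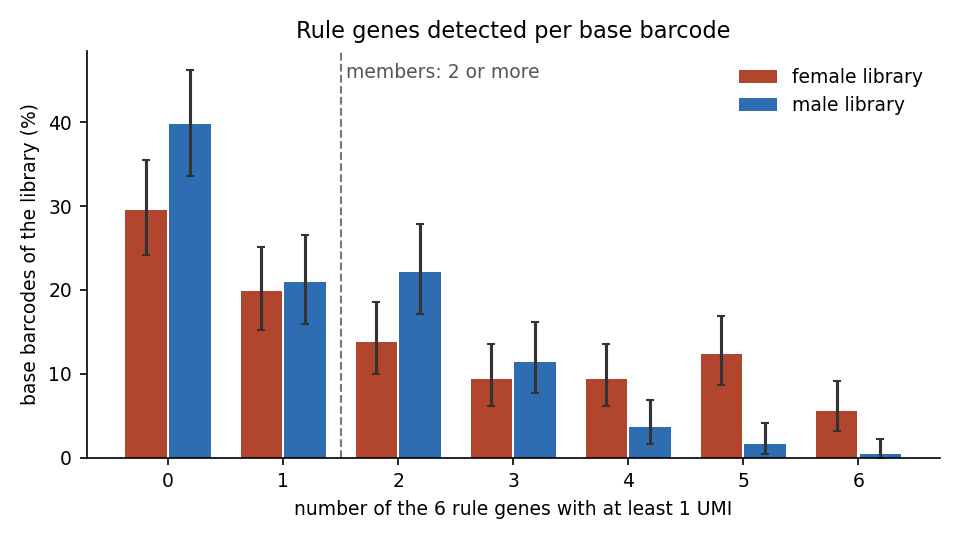
Number of the 6 rule genes with a UMI (horizontal axis) against the percentage of conventional CD4 (base) barcodes of each library (vertical axis, from 0), with exact 95% intervals as error bars. At 4, 5 and 6 genes lie 25, 33 and 15 female barcodes, against 9, 4 and 1 male barcodes.

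Across all genes, 318 of 5580 tested (5.70%) were at least 1.5-fold higher in members than in the others in both libraries, and 166 (2.97%) were at least 1.5-fold lower. The rule used this contrast, so nothing is read from these shares. The genes of the rule and the gate are outside both counts. Scaling decided the balance of directions. With edgeR's TMM factors, which set the median ratio of all genes near 0 (main medians 0.09 female and 0.10 male), the counts were 225 higher and 222 lower, so higher genes were 50.3% of calls, against 65.7% with library totals. In 28 of the 318 and 8 of the 166 genes a single barcode held over 25% of the UMIs of the higher class.

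**Figure D2:**
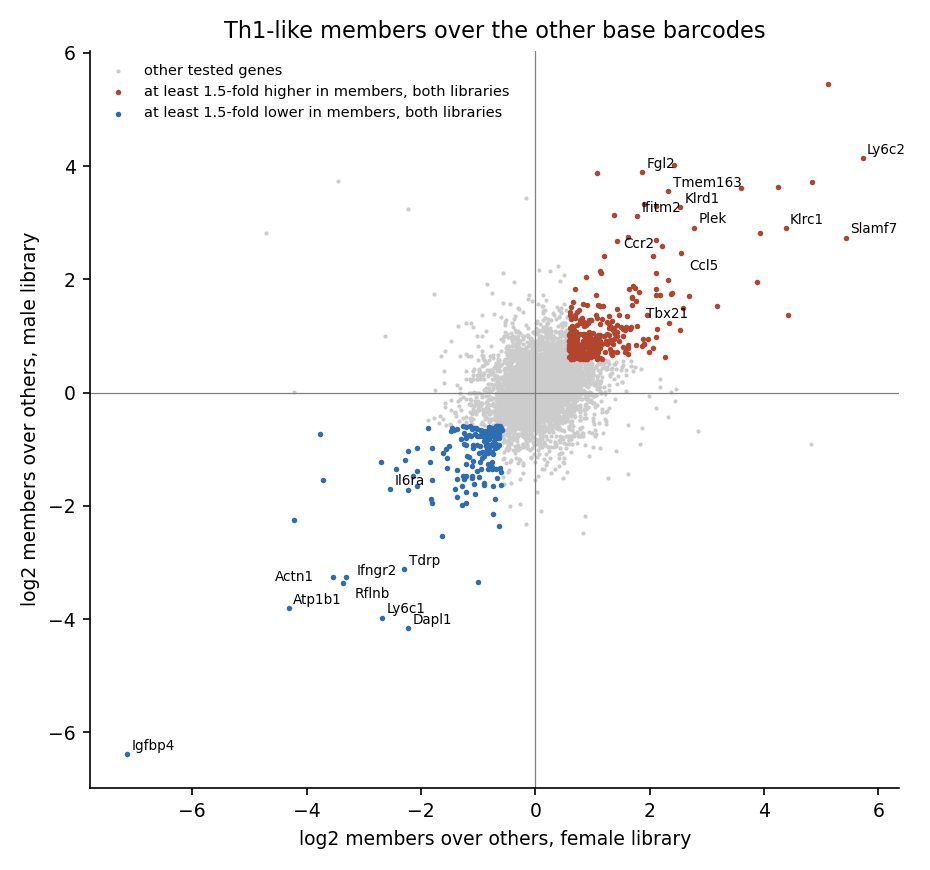
Log2 ratio of members over others in the female library (horizontal axis) and in the male library (vertical axis) for the 5580 genes tested, 1 point per gene, in red where called higher and blue where called lower in both libraries, with some named genes labelled. Ly6c2, Klrc1 and Slamf7 lie far up and right, Ccl5 and Tbx21 lie closer in, and Igfbp4, Rflnb, Actn1 and Ifngr2 lie down and left.

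Th1 genes outside the rule were higher in members or not called, with all members counted. Of 16 that passed the filter, from a list of 23, 8 were higher and none was lower, with a median log2 ratio of 1.05 for female and 0.88 for male cells, beside 0.09 and 0.10 for all genes. Over all genes tested 5.70% were higher and 2.97% lower. In 2 alternatives chosen after seeing the data, 1 gene of the list, Txk, was lower. These were leaving out Klrg1 members, with 8 of 17 higher, and leaving out members whose receptor V pair recurred, described below, with 7 of 16 higher. The 8 higher genes with all members were Tbx21, Ccl5, Hopx, Bhlhe40, Fasl, Ly6c2, Ccr2 and Zeb2. Stat4, Cxcr3, Runx3 and Il18r1, all textbook Th1 genes, did not reach the fold in both libraries.

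The transcription factors T-bet and Bhlhe40, which represses interleukin 10 in Th1 cells, were both among them. Tbx21 stood at 154 CPM in female members and 159 CPM in male members, against 45.3 and 51.7 CPM in the female and male others. Its log2 ratio was 1.76 (1.20 to 2.36) for female and 1.62 (1.08 to 2.18) for male cells, and the intervals of the libraries overlapped. Bhlhe40 (chr6:108660629-108666925) stood at 1144 CPM in female members and 1046 CPM in male members, against 508 and 573 CPM in the female and male others, with log2 ratios of 1.17 (1.0 to 1.35) for female and 0.87 (0.69 to 1.04) for male cells. Prdm1, which encodes Blimp-1, stood at 46.1 and 35.1 CPM in female and male members, against 12.4 and 19.4 CPM in the others, and Zeb2 at 67.3 and 44.2 CPM in female and male members, against 23.3 and 22.0 CPM in the others.

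Chemokine and homing genes were next. Ccl5 (chr11:83525778-83530518), a chemokine of effector T cells, was the most abundant of these, at 2366 CPM in female members and 1899 CPM in male members, against 404 and 345 CPM in the female and male others. Its log2 ratios were 2.55 (2.37 to 2.73) for female and 2.46 (2.27 to 2.66) for male cells. Of the chemokine receptors, Ccr2, which guides cells to inflamed tissue, stood at 68.5 and 82.4 CPM in female and male members, against 16.5 and 15.5 CPM in the others. Cxcr3, the receptor best known on Th1 cells, stood at 128 and 171 CPM in female and male members, against 119 and 109.9 CPM in the others. Ccr8, known from tumour regulatory T cells and Th2 cells, was also higher, at 113 and 175 CPM in female and male members, against 65.9 and 116 CPM in the others.

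Ly6c2 (chr15:75108158-75111970), a surface antigen of effector T cells and monocytes, had the largest of the Th1 list ratios. It stood at 363 CPM in female members and 91.5 CPM in male members, against 6.87 and 5.17 CPM in the female and male others. Its close neighbour Ly6c1 went the other way, at 4.72 and 3.05 CPM in female and male members, against 30.2 and 47.8 CPM in the others. These paralogs are near copies, so how reads were divided between them is uncertain.

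Of 23 cytotoxic genes 14 passed the filter, of which 12 were higher and none was lower, with a median of 1.74 for female and 1.85 for male cells. Over all genes tested 5.70% were higher. A gene could pass on its level in members alone, which favours higher genes. With the filter set on the level over members and others together, an alternative chosen after seeing the data, 12 passed and 10 were higher, with medians of 1.33 and 1.62. Klrc1, an NK receptor chain, stood at 143 CPM in female members and 185 CPM in male members, against 6.87 and 24.6 CPM in the female and male others. Klrd1, which encodes its partner CD94, stood at 151 and 188 CPM in female and male members, against 26.1 and 19.4 CPM in the others. Slamf7, a receptor of effector lymphocytes, stood at 59.1 CPM in female and 25.9 CPM in male members, against 1.37 CPM in the female others and 0 UMIs in the male others, where members were at least 6.68-fold higher by a floor of 3 counts in that class. The female log2 ratio, over 1 UMI in the others, was 5.43 (2.88 to 10.76).

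Granzyme B (Gzmb) stood at 254 CPM in female members and 433 CPM in male members, against 50.8 and 109 CPM in the female and male others. Its log2 ratios were 2.32 (1.81 to 2.87) for female and 2.0 (1.64 to 2.36) for male cells, with 26.0% of the female members' and 45.9% of the female others' UMIs in 1 barcode. Prf1, the pore protein that delivers granzymes, was low, at 2.36 and 15.2 CPM in female and male members, against 0 and 1.29 CPM in the others, while Cd8 barcodes stood at 319 and 301 CPM. Ctsw, Klrk1, Serpinb9, Cst7, Gzma, Gzmk, Gzmc and Fasl completed the list's higher genes. Of these, 1 barcode held 75% of the female and 56.8% of the male members' Gzmc UMIs.

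Genes of naive and central memory T cells ran the other way. Of 19, which all passed the filter, 11 were lower and none was higher, with a median of -1.06 for female and -1.06 for male cells. Over all genes tested 2.97% were lower. With the filter set on the level over members and others together, 10 of 18 were lower. Tcf7, which encodes TCF-1, stood at 182 CPM in female members and 169 CPM in male members, against 380.3 and 516 CPM in the female and male others, with log2 ratios of -1.06 (-1.36 to -0.77) for female and -1.61 (-1.92 to -1.30) for male cells. Bach2, a repressor of effector genes, stood at 143 and 124 CPM in female and male members, against 332 and 344 CPM in the others. S1pr1, the receptor that lets T cells leave tissue, stood at 167 and 136 CPM in female and male members, against 353 and 314 CPM in the others.

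Igfbp4 (chr11:99041244-99054392) was nearly absent from members. It stood at 1.18 CPM in female and 0 UMIs in male members, against 166 and 383 CPM in the others. The female log2 ratio rests on 1 UMI and was -7.14 (-12.45 to -4.63), and male members were at least 83.7-fold lower. Dapl1, Actn1, Rflnb and Atp1b1 were likewise low in members, with Rflnb at 10.6 and 12.2 CPM in female and male members, against 109.8 and 125 CPM in the others and Actn1 at 4.72 and 12.2 CPM in female and male members, against 54.9 and 116 CPM in the others. Ccr7, the lymph node homing receptor, was lower in the female library only by the fold used, with log2 ratios of -1.16 for female and -0.20 for male cells.

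Receptors and inhibitors of cytokine signalling gave an uneven picture: 2 of 26 genes were higher, Cish and Il2ra, and 3 were lower, Ifngr2, Socs1 and Socs3. Without Klrg1 members 1 of 25 was higher, Cish, and 2 were lower, Ifngr2 and Socs3. Among all genes tested 5.70% were higher and 2.97% lower. Ifngr2 (chr16:91547072-91565623) encodes the signalling chain of the interferon gamma receptor, which Th1 cells are known to lose. It stood at 7.09 CPM in female members and 6.10 CPM in male members, against 70.0 and 58.2 CPM in the female and male others, with log2 ratios of -3.30 (-4.82 to -2.08) for female and -3.25 (-5.19 to -1.80) for male cells. Socs3, a feedback inhibitor of interleukin 6 family signals, stood at 229 and 186 CPM in female and male members, against 492 and 519 CPM in the others. Il6ra, a receptor chain for interleukin 6, stood at 14.2 and 29.0 CPM in female and male members, against 82.4 and 94.4 CPM in the others. The list's median of 0.06 and 0.05 was no further from 0 than that of all genes. With the ratios of both libraries averaged it was 0.05, and turned to -0.04 under TMM scaling.

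Adhesion and cytoskeleton genes of effector cells were higher in 9 of 22 and lower in 1, Itga6, with a median of 0.64 for female and 0.76 for male cells. Lgals3 and Lgals1, which encode galectins, stood at 389.7 and 351 CPM in female and male members, against 83.8 and 58.2 CPM in the others and at 1960.5 and 1623 CPM in female and male members, against 714 and 626 CPM in the others. Anxa2 stood at 565 and 601 CPM in female and male members, against 181 and 168 CPM in the others. Glycolysis genes were higher in 9 of 22 and lower in none, with a median of 0.53 for female and 0.58 for male cells. With the filter set on the level over members and others together, adhesion and glycolysis genes were each higher in 8 of 21. Tpi1 stood at 503 and 485 CPM in female and male members, against 207 and 265 CPM in the others and the lactate exporter gene Slc16a3 at 95.7 and 62.5 CPM in female and male members, against 37.1 and 28.5 CPM in the others. By contrast 1 of 20 oxidative phosphorylation genes, Ndufb9, was higher, beside 5.70% of all genes tested.

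Among the genes with the largest ratios outside the lists were Plek, Tmem163, Padi2, Ifitm2 and Hip1. Plek, which encodes the signalling protein pleckstrin, stood at 75.6 and 48.8 CPM in female and male members, against 11 and 6.47 CPM in the others. Ifitm2, an interferon-induced membrane protein gene, stood at 445 and 741 CPM in female and male members, against 129 and 85.4 CPM in the others. Fgl2, which encodes a fibrinogen-like protein of T cells, stood at 20.1 CPM in female and 58.0 CPM in male members, against 5.49 CPM in the female others and 0 UMIs in the male others, where members were at least 14.9-fold higher. On the lower side Tdrp, Lrig1, St8sia1 and Usp6nl joined the naive genes. Lrig1, a growth factor receptor inhibitor, stood at 27.2 and 24.4 CPM in female and male members, against 96.1 and 89.2 CPM in the others, and St8sia1, a ganglioside synthase gene, at 22.4 and 16.8 CPM in female and male members, against 78.3 and 64.7 CPM in the others.

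Genes of other helper programs were called in either direction. For all genes tested the shares were 5.70% higher and 2.97% lower. Follicular helper genes were lower in 3 of 10, Izumo1r, Cd200 and Slamf6, and higher in none, with a median of -0.77 for female and -0.54 for male cells. Of 6 Th2 genes 1 was higher and 1 was lower, and none of 3 Th17 genes was called. Regulatory T cell genes other than Foxp3 were higher in 3 of 10, Il2ra, Tnfrsf9 and Entpd1, and lower in 1, Izumo1r. Without Klrg1 members 1 of 10 was higher, Tnfrsf9. Without members whose receptor V pair recurred, described below, 5 of 11 were higher, Ikzf2, Il10, Il2ra, Tnfrsf9 and Entpd1. Izumo1r was lower both ways. Among inhibitory receptors Lag3, Klrc1 and Entpd1 were higher, 3 of 9. Lag3 stood at 95.7 and 287 CPM in female and male members, against 56.3 and 105 CPM in the others. Without Klrg1 members Klrc1 and Pdcd1 were higher, 2 of 9, and Btla was lower. Without members in recurring pairs Cd101, Lag3, Klrc1 and Entpd1 were higher, 4 of 9, and none was lower. Secreted factors were higher in 3 of 8, Ccl5, Csf1 and Lta. Csf1, the macrophage growth factor, stood at 62.6 and 27.5 CPM in female and male members, against 4.12 and 3.88 CPM in the others. With the filter set on the level over members and others together, 1 of 6 secreted factors was higher, Ccl5. Inhibitory receptors were then higher in 2 of 7, Lag3 and Klrc1, and regulatory T cell genes in 2 of 9, Il2ra and Tnfrsf9. Without Klrg1 members 2 of 8 secreted factors were higher, Ccl5 and Csf2. All these alternatives were chosen after seeing the data.

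Survival genes were higher in 3 of 19 (Bcl2l1, Bak1 and Fasl), T cell receptor activation genes in 3 of 17 (Egr1, Dusp2 and Tnfrsf9), residency genes in 2 of 12 (Prdm1 and Bhlhe40) and exhaustion and memory transcription factors in 3 of 20, with 3 lower and a median of 0.08 over both libraries that turned to -0.02 under TMM scaling. Dissociation stress genes were lower in 2 of 21 and higher in none, with a median of -0.22 for female and -0.23 for male cells. No cell cycle gene of 9 and no cholesterol gene of 8 was called. For comparison, 5.70% of all genes tested were higher and 2.97% were lower.

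CD40 ligand, the help molecule the study's title names, was also a gate gene, so its level is partly set by the gate. It stood at 197 CPM in female members and 129.6 CPM in male members, against 187 and 144 CPM in the female and male others. Members and others overlapped, with log2 ratios of 0.08 (-0.26 to 0.42) for female and -0.15 (-0.57 to 0.27) for male cells. Cd40lg together with Cd4 was held by 60 of 135 female and 37 of 96 male members, and Cd40lg alone of the 2 by 9 and 8, against 24 and 17 others. Of 14 help and costimulation genes 1, Tnfrsf9, was higher and none was lower, with a median of 0.10 for female and 0.19 for male cells. Over all genes tested 5.70% were higher.

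Levels were also followed from 0 through 1, 2 and 3 to 4 or more rule genes, again as a description. Tbx21 stood at 31.8, 62.7, 75.2, 122 and 204 CPM in female and 36.7, 77.9, 162, 168 and 135 CPM in male cells. Ccl5 stood at 78.2, 821, 814, 1329 and 3505 CPM in female and 159, 669, 2153, 1619 and 1638 CPM in male cells. Female Tbx21 was higher at each step, while male Tbx21 was level from 2 genes on. Female Ccl5 was flat between 1 and 2 genes and highest at 4 or more, and male Ccl5 was highest at 2.

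Ccr7 was low only at the top of the female scale, at 677, 999, 925, 335 and 101 CPM, while the male library stood at 1240.5, 680.1, 779.7, 1032 and 1029 CPM. Irf7, an interferon-induced transcription factor, stood at 105, 107, 79.7, 159 and 363 CPM in female and 81.5, 42.5, 67.9, 32.6 and 45.1 CPM in male cells. The highest male class held 14 barcodes, against 73 female barcodes.

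**Figure D3:**
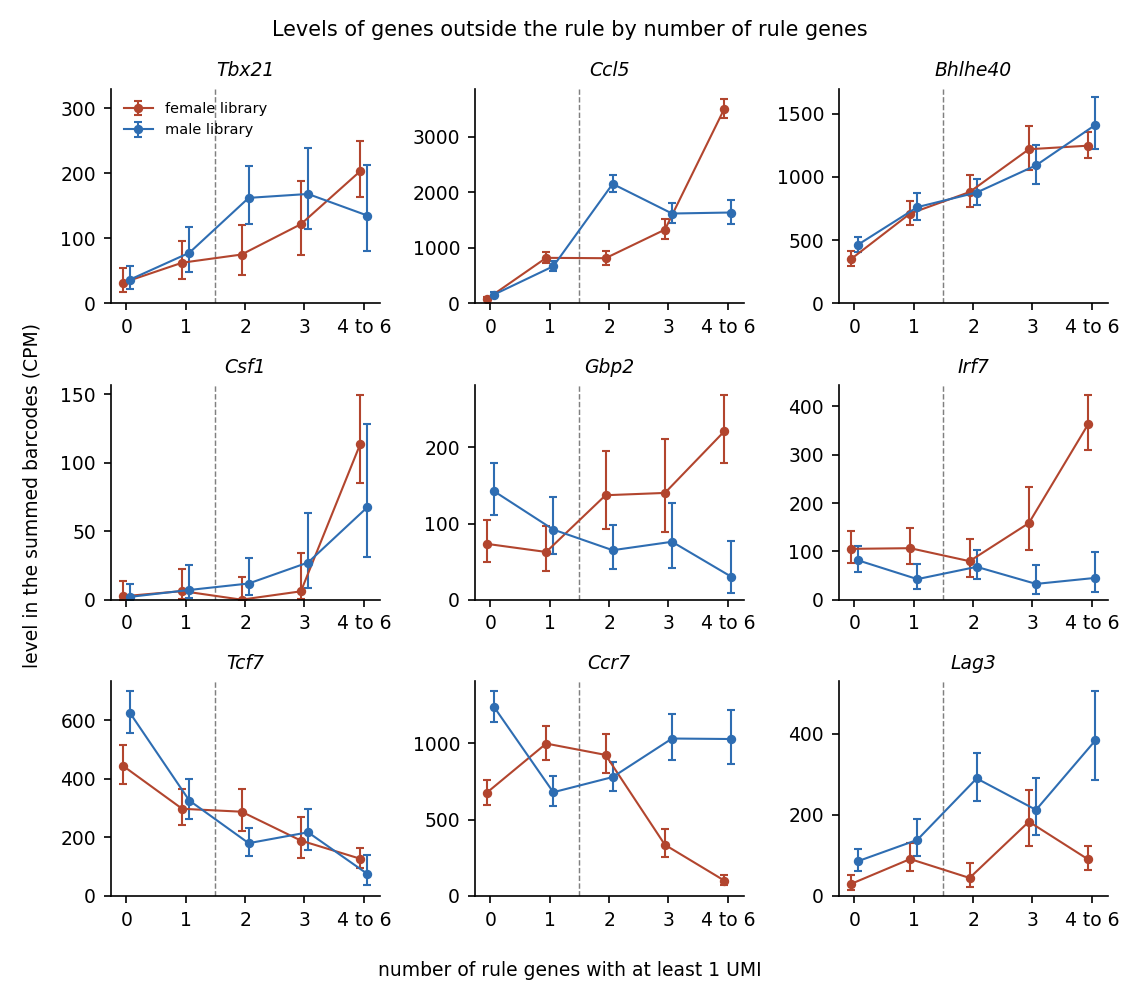
Level in CPM (vertical axis) of genes outside the rule against the number of rule genes with a UMI (horizontal axis, 0, 1, 2, 3 and 4 to 6) for female (red) and male (blue) conventional CD4 barcodes, with exact 95% counting intervals and a dashed line at the threshold for members. Tbx21 and Ccl5 are higher at the right than at the left in both libraries, while Irf7 and Gbp2 are higher at the right in the female library alone.

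Set beside the other T cells of the same libraries, members lay between Foxp3 and Cd8 barcodes in some genes and not in others. Ly6c2 stood at 363 and 91.5 CPM in members, against 26.5 and 9.50 CPM in Foxp3 barcodes and 966 and 1053 CPM in Cd8 barcodes. Tbx21 stood at 154 and 159 CPM in members, against 71.5 and 67.1 CPM in Foxp3 barcodes and 132 and 116 CPM in Cd8 barcodes. Ccl5 stood at 2366 and 1899 CPM in members, against 849 and 334 CPM in Foxp3 barcodes and 6879.9 and 6169.7 CPM in Cd8 barcodes. Members thus lay between these classes for Ly6c2 and Ccl5. For Tbx21 they lay above Foxp3 barcodes, and the female interval overlapped that of Cd8 barcodes. Ifngr2 stood at 7.09 and 6.10 CPM in members, against 19.4 and 29.1 CPM in Foxp3 barcodes and 3.29 and 10.3 CPM in Cd8 barcodes.

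Between the libraries, 84 of 5580 genes (1.51%) were at least 1.5-fold higher in female members with the near end of the interval at least 0.32 above 0 on the log2 scale, and 73 (1.31%) were lower by the mirrored limits. In the others 51 (0.914%) were higher and 42 (0.753%) were lower. Receptor segments were 5 of the 84 and 7 of the 73, and 1 barcode held over 25% of the UMIs of the higher library in 6 and 14 of them. Xist and Y-linked genes are outside both counts, since a gene had to reach 20 CPM in each library. Of 21 dissociation stress genes 4 were lower in female members, Jun, Fosb, Dusp1 and Atf3, and none was higher, with a median log2 ratio of -0.03. In the others 3 of the 21 were lower and none was higher. Jun, Fosb and Dusp1 had ratios of -1.08, -1.01 and -0.86 in members. With 1 library per sex, sex, mouse, tumour and library preparation cannot be told apart.

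Several interferon-induced genes were higher in female members. Of 23 interferon gamma response genes 5 were higher, Gbp2, Gbp3, Gbp5, Igtp and Irgm1, and none was lower, with a median log2 ratio of 0.38 in members, against -0.15 in the others and 0.04 for all genes. Over all genes tested 1.51% were higher in female members. Without Klrg1 members 5 of 22 were higher, with Gbp6 in place of Gbp5. Without members whose receptor V pair recurred 1 of 23 was, Gbp2, with a median of 0.28. Gbp2 (chr3:142620602-142638008), a GTPase that interferon gamma induces, stood at 183 CPM in female members, against 61.0 CPM in male members, a log2 ratio of 1.59 (1.08 to 2.12). In the others the ratio was -0.85 (-1.38 to -0.35). The guanylate-binding proteins are paralogs, so division of reads among them is uncertain.

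Of 10 type I interferon response genes 3 were higher, Irf7, Ifit1 and Ifi27l2a, with a median of 0.66 in members, against 0.29 in the others. Irf7 (chr7:141262706-141266481) had the highest ratio of the named genes. It stood at 248 CPM in female members, against 53.4 CPM in male members, a log2 ratio of 2.22 (1.69 to 2.78), and at 0.65 (0.13 to 1.19) in the others. Without Klrg1 members the ratio of Irf7 was 1.49 and that of Gbp2 1.45. Without members in recurring pairs they were 1.11 and 1.01, and the same 3 genes were higher.

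Ckb, Slc15a2, Ly6c2, Inpp4a and Trat1 followed Irf7 among the higher genes that did not rest on 1 barcode, with log2 ratios of 2.11, 2.02, 1.99, 1.95 and 1.83. Without Klrg1 members Ckb, Inpp4a and Trat1 no longer passed the limits, at 1.21 (-0.08 to 2.63), 1.80 (0.29 to 3.61) and 0.82 (0.08 to 1.58). Trat1, a T cell receptor adaptor, was at 0.60 without members in repeated receptor pairs, and Inpp4a at 1.61 (0.0985 to 3.42), also short of them. Tnf stood at 80.3 CPM in female members, against 38.1 CPM in male members, a log2 ratio of 1.07 (0.39 to 1.80). It did not pass the limits without Klrg1 members, at 0.58 (-0.22 to 1.41), or without repeated pairs, at 0.35 (-0.52 to 1.24). The anti-apoptotic paralogs Bcl2a1b and Bcl2a1d had ratios of 0.90 (0.75 to 1.05) and 0.96 (0.78 to 1.14). Csf1 had a ratio of 1.19 (0.39 to 2.05), which turned to -0.39 without Klrg1 members and to -0.43 without repeated pairs, and 1 barcode held 38.9% of the male members' UMIs.

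Some genes of memory and of inhibition were lower in female members. Of 19 naive and central memory genes 4 were lower, Ccr7, Il7r, Il6st and Cd27, and 1, Klf3, was higher, with a median of 0.04. Over all genes tested 1.31% were lower and 1.51% higher. In the others 6 of the same 19 were lower and none was higher, with a median of -0.44. Without Klrg1 members Il7r was at -0.49 (-0.82 to -0.16) and Klf3 at 0.69 (0.11 to 1.27), and without repeated pairs at -0.50 and 0.74, all short of the limits. Ccr7 stood at 366 CPM in female members, against 901 CPM in male members, a log2 ratio of -1.30 (-1.50 to -1.10), against -0.34 (-0.50 to -0.19) in the others. Il6st, which encodes gp130, stood at 3.54 CPM in female members, against 42.7 CPM in male members. Of the named genes that did not rest on 1 barcode it had the lowest ratio, -3.59 (-5.95 to -1.90), followed by Elovl6, Mpp6, Rhob, Bckdk and Btla at -2.59, -2.07, -1.95, -1.76 and -1.69. Btla, at -1.16 without Klrg1 members and -1.58 without repeated pairs, and Bckdk, at -1.31 without repeated pairs, were then short of the limits.

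Of 9 inhibitory receptors 3 were lower, Lag3, Ctla4 and Btla, beside 1.31% of all genes tested. In the others 2 of the same 9 were lower and none was higher, with a median of -0.01, against -0.46 in members. Lag3 stood at 95.7 CPM in female members, against 287 CPM in male members, a log2 ratio of -1.58 (-1.98 to -1.20). Without Klrg1 members it was -1.72, and without repeated pairs -1.19. Ctla4 stood at 259.8 CPM in female members, against 549 CPM in male members, and its ratio of -1.08 (-1.33 to -0.83) was -0.45 (-0.74 to -0.16) without Klrg1 members, short of the limits. Ikzf2 had a ratio of -1.26 (-1.69 to -0.84) with all members and 0.35 without Klrg1 members, so its direction rested on the 12 male members described above. Gzmb was lower too, at -0.77 (-1.03 to -0.51), and short of the limits without Klrg1 members, at -0.56, and without repeated pairs, at -0.47. Of 14 cytotoxic genes 3 were lower and 1 higher in female members, and 2 were lower and none was higher in the others. By the levels given above, Gzmb and Lag3 were also lower in the female than in the male others. Cd40lg had a ratio of 0.61 (0.22 to 1.0), short of the limits. It passed them without Klrg1 members, at 0.86 (0.46 to 1.27), and without repeated pairs, at 0.86 (0.41 to 1.31).

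**Figure D4:**
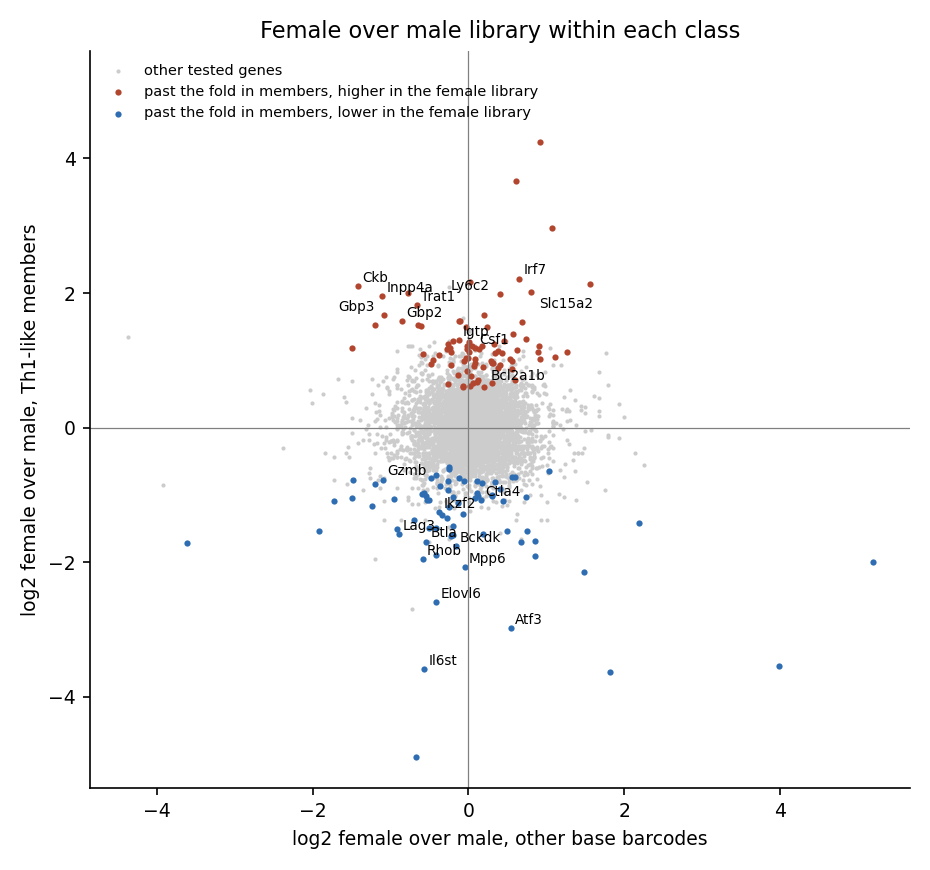
Log2 ratio of female over male in members (vertical axis) against the same ratio in the others (horizontal axis), 1 point per gene tested, in red where higher and blue where lower in female members past the limits. The farthest unlabelled points above and below are receptor segments or genes with over 25% of the UMIs in 1 barcode. Irf7, Gbp2 and Ly6c2 lie high and Il6st and Lag3 low in members, while their ratios in the others are closer to 0 or of the other sign.

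Within the female library, the 49 members with Klrg1 stood apart from the 86 without it, in a split that uses a rule gene and is given as a description. Ccl5 stood at 3658 CPM with Klrg1 and 1653 CPM without it. Csf1 stood at 153 CPM with Klrg1 and 12.8 CPM without it, and Irf7 at 432 CPM with Klrg1 and 147 CPM without it. Ccr7 ran the other way, at 29.9 CPM with Klrg1 and 552 CPM without it. Tbx21 stood at 213 CPM with Klrg1 and 121 CPM without it. Median depths were 5274 and 5355.5 UMIs. In the 12 male members with Klrg1, Ccl5 stood at 5707 CPM and Gzmb at 2181 CPM, and in the 84 without it at 1508 CPM and 254 CPM.

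Receptor V segments were not used by the rule. Each barcode was given its most counted Trbv and Trav segment, at 2 or more UMIs with no tie, and pairs were then compared. Trbv12-2 was the top beta segment of 31 of 126 female members (24.6%, 17.4 to 33.1), against 15 of 113 female others (13.3%) and 1 of 78 male members. Trbv19 led in 16 of 78 male members (20.5%, 12.2 to 31.2), against 9 of 119 male others. Trav4-3 led in 12 of 94 female and 4 of 60 male members, against 1 of 61 and 1 of 72 others. Shown for the most frequent pairs are the last 60 bases of each segment, from GENCODE M21 transcripts on GRCm38, plus strand, with the conserved cysteine codon that opens the CDR3 in capitals, because that end of the segment meets the variable junction.
Trbv12-2: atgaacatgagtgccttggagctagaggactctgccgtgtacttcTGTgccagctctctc
Trav4-3: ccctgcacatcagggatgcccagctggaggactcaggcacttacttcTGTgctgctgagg
Trbv20: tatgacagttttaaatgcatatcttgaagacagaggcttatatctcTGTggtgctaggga
Trav5-4: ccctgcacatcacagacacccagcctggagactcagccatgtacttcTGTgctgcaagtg
Trbv29: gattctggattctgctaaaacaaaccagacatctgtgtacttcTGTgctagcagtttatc
Trav14-2: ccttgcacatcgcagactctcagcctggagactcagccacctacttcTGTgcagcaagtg
Trbv19: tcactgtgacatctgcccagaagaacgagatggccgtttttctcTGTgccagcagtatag
Trav7-3: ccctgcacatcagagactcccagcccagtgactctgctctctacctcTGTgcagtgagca

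The beta segments are Trbv12-2 at chr6:41118851-41119364, Trbv20 at chr6:41188273-41188977, Trbv29 at chr6:41271394-41271881 and Trbv19 at chr6:41178375-41179048. The alpha segments are Trav4-3 at chr14:53598828-53599410, Trav5-4 at chr14:53704007-53704514, Trav14-2 at chr14:53640701-53641225 and Trav7-3 at chr14:53443249-53443839. Mouse Trav segments have near-identical copies on the same chromosome (near its end Trav4-3 matched Trav4n-3 at 97.5% and Trav7-3 matched Trav7d-3 at 99.3%), so an alpha assignment can stand for a copy. A V pair holds no junction sequence, and barcodes with the same pair were not shown here to share a receptor.

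Pairs seen in 2 or more members of a library were frequent in female members. They held 48 of 90 female members with both chains (53.3%, 42.5 to 63.9), in 11 pairs, against 8 of 59 female others (13.6%, 6.04 to 24.98). In the male library they held 11 of 52 members (21.2%, 11.1 to 34.7), in 2 pairs, against 4 of 60 others (6.67%). Foxp3 barcodes of the same gate gave 27.8% of 79 female and 27.0% of 111 male barcodes. Barcodes of 1 library are not replicates, and these intervals do not compare the sexes. More assigned barcodes give more chances of a repeat, and the classes differ in their number.

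The most frequent of the 11 female pairs were Trbv12-2 with Trav4-3 in 11 female members, Trbv20 with Trav5-4 in 7, Trbv29 with Trav14-2 in 7 and Trbv12-2 with Trav7-1 in 5, and the other 7 were seen in 2 or 3 members each. The male pairs were Trbv19 with Trav7-3 in 7 members and Trbv15 with Trav4-3 in 4. Of the female pairs 2 were also seen in 1 barcode of the others each and 1, Trbv12-2 with Trav7-1, in 1 Foxp3 barcode. None of the repeated pairs was seen in a member of the other library. Female members in repeated pairs held more rule genes. Of female members with 4 to 6 rule genes 43 of 56 were in them (76.8%, 63.6 to 87.0), against 5 of 34 with 2 or 3 (14.7%, 4.95 to 31.1). Of male members with 4 to 6 rule genes 3 of 7 were (42.9%, 9.90 to 81.6), against 8 of 45 with 2 or 3 (17.8%, 8.0 to 32.1), so the male intervals overlapped. The 7 members of the largest male pair held a median of 2 rule genes. Of female members with Klrg1 33 of 42 were in them (78.6%), against 15 of 48 without it. No male member with Klrg1 was, of 5 with both chains.

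Female members in repeated pairs also differed in level from female members whose pair was seen once. Ccl5 stood at 3878 CPM in repeated pairs, against 937 CPM in pairs seen once, and Irf7 at 511 CPM in repeated pairs, against 132 CPM in pairs seen once. Csf1 stood at 142 CPM in repeated pairs, against 16.1 CPM in pairs seen once. Ccr7 ran the other way, at 18.2 CPM in repeated pairs, against 798 CPM in pairs seen once, as did Lag3, at 10.9 CPM in repeated pairs, against 145 CPM in pairs seen once. The male library ran otherwise, with 11 members in repeated pairs and 41 in pairs seen once. Male Ccl5 stood at 443 CPM in repeated pairs, against 2482 CPM in pairs seen once, and Irf7 at 36.9 CPM in repeated pairs, against 69.7 CPM in pairs seen once. Csf1 had 0 UMIs in repeated pairs, against 45.3 CPM in pairs seen once. For Ccr7 the male values lay in the female direction, at 387 CPM in repeated pairs, against 1070.0 CPM in pairs seen once, as they did for Lag3, at 166 CPM in repeated pairs, against 338 CPM in pairs seen once. The subset was chosen after these values were seen. Without members in repeated pairs, 44 genes were higher in female members, against 84 with them. That left out 48 of 135 female and 11 of 96 male members. Fewer counts widen the intervals a call needs, so the drop alone does not show that ratios changed.

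**Figure D5:**
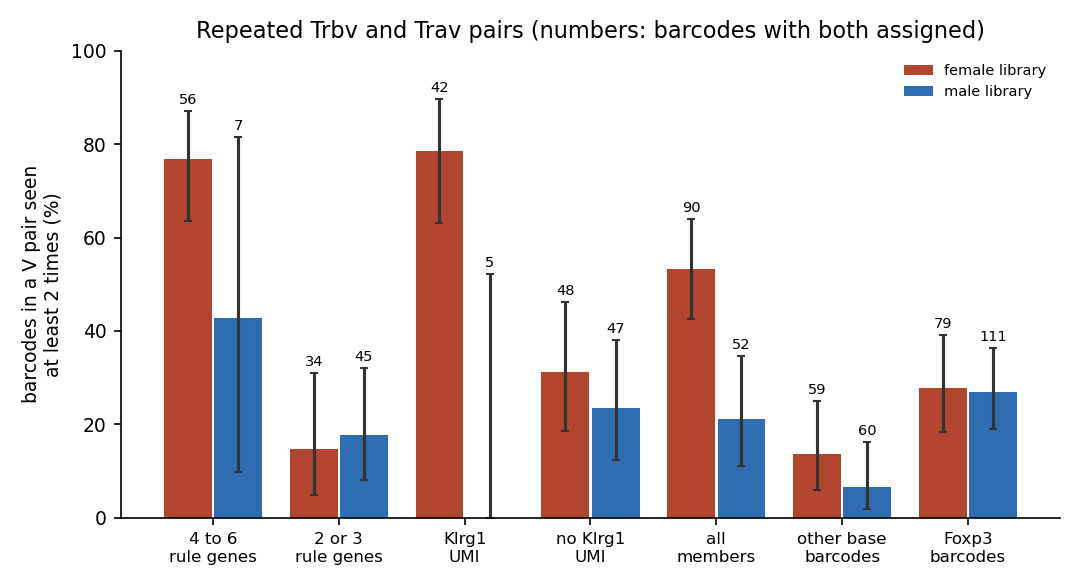
Percentage of barcodes with both V segments assigned that lie in a pair seen at least 2 times (vertical axis, from 0), for subsets of members by rule genes and by Klrg1, all members, the others (other base barcodes) and Foxp3 barcodes, female bar left of male bar. Error bars are exact 95% intervals and the number over a bar is its barcodes with both segments. Female members are at 53.3% and male members at 21.2%, and the others are at 13.6% and 6.67%.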

How the data were processed

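The authors deposited, per sample, a matrix of counts, whole numbers of UMIs per gene and barcode, with feature and barcode lists; Cell Ranger 7.0.1 wrote it, per the file headers. The submitters' processing notes also list GRCm38 and Seurat 5; filters and annotation are not given in the sources used here. Every deposited column was used (0 left out), and 32158 of 32285 genes matched GENCODE M21. Barcodes were filtered and classed as the report's opening states. No doublet caller was run, and only the cap of 25000 UMIs and the gate's absent genes limit doublets. UMIs were summed per class and library with Python 3.11.15, numpy 2.4.6, scipy 1.17.1, pandas 2.3.3 and matplotlib 3.10.9. A gene was tested if it reached 20 CPM in 1 class of each library and 50 UMIs over all conventional CD4 barcodes. Log2 ratios have exact 95% intervals of a ratio of Poisson counts, shares have Clopper-Pearson intervals, and a 0 was set to 3 counts. The interval of a share difference combines the distances of both shares to their bounds, and is not exact. After thinning those bounds were taken at the mean count over the 200 draws. Members over others was called at 1.5-fold in the same direction in both libraries, and female over male at 1.5-fold with the near end of the interval at least 0.32 from 0 on the log2 scale. The steps were tested on simulated data. TMM factors came from edgeR 4.0.16 in R 4.3.3, as a scaling only.

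The members, the 24 gene lists and the 11 marker lists were chosen with earlier results of these data known. Named genes are those of the rule, gate and markers, up to 4 per list with the largest mean ratio that passed the fold, the 12 highest and 12 lowest in members over others, and the 6 highest and 6 lowest in female over male. Predicted, sex-linked, receptor, mitochondrial and ribosomal genes were left out of those rankings, as were genes with over 25% of the UMIs of the higher class in 1 barcode. Other list genes are named with their values. Some genes were left out of the lists and are not reported here. Thinning to a fixed number of UMIs was drawn 200 times. V segments were taken at 2 or more UMIs.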

Additional observations from a re-analysis of the deposited data

Results flagged for a closer look

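The results here had log2 ratios of members over others that had opposite signs for female and male cells. With 1 library per sex the difference was not tested.

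Of the interferon-induced genes, Gbp2 had a ratio of 1.41 for female and -1.03 for male cells. The interferon gamma-induced GTPase gene Igtp had 0.74 for female and -0.69 for male cells. Ifit1 had 1.28 for female and -1.50 for male cells, and 1 barcode held 41.9% of its UMIs in female members.

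Of the type 2 cytokine and repair genes, Il13 had -3.44 for female and 3.74 for male cells, where the others held no UMI and the 0 was set to 3 counts. In each of the classes that held Il13, 1 barcode carried at least 85.3% of the UMIs. Areg had -2.63 for female and 1.0 for male cells, with 92.3% of the UMIs of female others and 61.6% of those of male members in 1 barcode. Atf3, a stress gene, had -1.78 for female and 1.74 for male cells, with 58.2% of the male members' UMIs in 1 barcode.

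The cell cycle genes had a median of -0.62 for female and 0.65 for male cells over the 9 that passed the filter, none of which was called.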

How the results depend on the processing

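The difference in the share of members, female minus male, kept its sign under all 16 alternatives run, between 10.2 and 19.5 percentage points. Leaving out Klrg1 members or members in repeated V pairs was not among these 16, so the difference was not computed without them. Members without a Klrg1 UMI were 86 female and 84 male barcodes, beside 132 female and 148 male others. Repeated V pairs held 48 of the 135 female and 11 of the 96 male members. Of the main results under the alternatives, 105 stayed within the limits set for a like value and 11 moved. Without the gene filter beyond 1 UMI per class, 790 genes were higher and 452 lower in members, and 125 were lower in female members. With at least 50 CPM, 161 were higher and 86 lower in members, and 52 were higher in female members. At 2-fold, 90 were higher and 50 lower in members. After thinning, 103 were lower in members. With 1 rule gene enough for membership, 46 were lower in female members, and without members in repeated V pairs, an alternative chosen after seeing the data, 44 were higher. TMM and median-ratio scaling gave 225 and 226 higher, and 222 and 220 lower, genes in members.

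Reversed directions are given as the log2 value under the alternative. In members over others, Cd200 was 0.088 with 1 rule gene enough, Gzmc -0.45 with the rule without Cxcr6, and after thinning the follicular helper median was 0.11 and Irgm2 0.15. In female over male, Tnfsf8 was -0.0945 with 3 rule genes required, Areg 0.13 without Ikzf2 barcodes, Ifi27l2a -0.20 with the rule without Il18rap and -0.26 without Ikzf2 barcodes, Tnfsf8 -0.39 without Ikzf2 barcodes and -0.27 after thinning, and Il13 0.63 with a cap of 15000 UMIs. Chosen after seeing the data, leaving out Klrg1 members gave Ikzf2 0.35 and Csf1 -0.39, and leaving out repeated V pairs gave Il13 1.07 and Csf1 -0.43. The cause was not tested. Depth limits genes near 20 CPM.

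No paired analysis was possible because each sex has 1 library and the replicate numbers pair nothing. Leaving out a library leaves no value to compare.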
